A study of Mus musculus with 9 samples.

Results

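The 10 genes described here belong to the Notch pathway and were measured in the mouse breast carcinoma line D2A1-d: the receptors Notch1, Notch2 and Notch3, the ligands Jag1, Jag2 and Dll1, and the target genes Hes1, Hey1, Heyl and Nrarp. They are 10 of the 55335 genes in the deposited count files, and each symbol matched 1 identifier. They were chosen by name with the differences of Hes1 and Hey1 between the hairpin groups and the control already known, since these 2 targets moved in opposite directions. For that reason the differences of the members from the control are given as a description, with intervals and without p-values. Where such a difference is said to be called or not, this records only the side of the threshold on which it fell and supports nothing. D2A1-d cells had been transduced with a non-targeting control hairpin (NTC), labelled wild type, or with 1 of 2 hairpins against Med1, shMed1 #2 and shMed1 #4, labelled as Med1 knockdown. All 3 groups share the cell line and the transduction. Each group held 3 samples called biological replicates; whether separate cultures or transductions lie behind them is open in the labels, so a p-value here covers only how far these samples spread, and that spread may be technical. All groups are 1 cell line, so the results describe that line.

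Notch receptors are single-pass membrane proteins that are switched on by ligands of the Delta and Jagged families on a neighbouring cell. Ligand binding exposes the receptor to cleavage by ADAM proteases and then by gamma-secretase, which frees the intracellular domain. This domain enters the nucleus and joins the DNA-binding protein Rbpj and a Mastermind coactivator to switch on targets such as the Hes and Hey genes, which encode basic helix-loop-helix repressors, and Nrarp, whose product limits the signal. The nuclear complex works with Mediator, of which Med1 is a subunit. In breast epithelium the pathway is known for its part in luminal cell fate, and Hes1 and Hey1 also respond to signals other than Notch.

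The Hes and Hey repressors are related but not interchangeable, and the stretch that contacts DNA shows where they part. The coding bases below, shown because Hes1 and Hey1 differed in direction in these cells, cover the basic region, and the capitals mark the codon for proline in Hes1 and for glycine in Hey1 and Heyl that tells the families apart. All 3 come from GENCODE M21 transcripts (GRCm38) and run over an exon boundary. The stretch of Hes1 lies on the plus strand in exons 1 and 2 (chr16:30065696-30065698 and chr16:30065831-30065869). That of Hey1 lies on the minus strand in exons 2 and 3 (chr3:8666502-8666516 and chr3:8666329-8666355). That of Heyl lies on the plus strand in exons 2 and 3 (chr4:123240183-123240197 and chr4:123241363-123241389). The marked residue is number 40 of 282 in Hes1, 55 of 299 in Hey1 and 49 of 326 in Heyl.
Hes1: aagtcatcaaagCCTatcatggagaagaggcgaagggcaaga
Hey1: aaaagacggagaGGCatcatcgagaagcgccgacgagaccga
Heyl: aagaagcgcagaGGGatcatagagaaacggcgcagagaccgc

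Library totals ran from 8123918 to 8879982 counts. Med1, the gene targeted by the hairpins, had a mean of 84.3 CPM in the NTC samples, 23.98 CPM for shMed1 #2 and 25.7 CPM for shMed1 #4. CPM values here divide a gene's counts by the summed counts of the tested genes of its library, with TMM scaling. Of 7 epithelial markers, Krt8 and Krt18 were above 1 CPM in every sample, Epcam and Krt5 had no counts in any sample, and Cdh1, Krt14 and Krt19 stayed under 1 CPM in every sample. All 5 mesenchymal markers were tested, and their summed level was 4098 to 4280 CPM in NTC, 4695 to 4909 CPM for shMed1 #2 and 4878 to 5095 CPM for shMed1 #4. They did not move together: in the order NTC, shMed1 #2 and shMed1 #4, the means were 1872, 2778 and 2444 CPM for Vim, 2216, 1923 and 2398 CPM for Fn1, and 3.23, 4.999 and 1.64 CPM for Cdh2. Zeb1 and Zeb2 had group means from 54.4 to 60.9 CPM and were not called with either hairpin. The summed level of the epithelial list was 56.5 to 58.3 CPM in NTC, 19.1 to 22.2 CPM for shMed1 #2 and 41.3 to 51.8 CPM for shMed1 #4. The 5 endothelial markers stayed under 1 CPM each, with sums of at most 1.08 CPM. Among 5 pericyte markers Pdgfrb alone was above 1 CPM, and Kcnj8 and Abcc9 had no counts. Of 5 leukocyte markers only Csf1r was above 1 CPM, and 3 had no counts in any sample, Cd3e and Itgam among them. The 3 adipocyte markers stayed under 1 CPM each. Whether a lower value reflects fewer cells of a kind or less RNA per cell cannot be told apart in these bulk samples.

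Of the 10 members, 6 had enough counts to be tested (Notch2, Jag1, Dll1, Hes1, Hey1 and Nrarp) and 4 had not (Notch1, Notch3, Jag2 and Heyl). Called here means an adjusted p below 0.05 by the quasi-likelihood test of edgeR over all 13611 tested genes. With shMed1 #2 against NTC, 4 of the 6 were called, 1 higher (Hes1) and 3 lower (Notch2, Dll1 and Hey1), where 43.7% of all tested genes were called, 21.8% higher and 21.9% lower. With shMed1 #4 against NTC, 4 were called, 2 higher (Hes1 and Jag1) and 2 lower (Notch2 and Hey1), where 28.2% of all tested genes were called, 14.0% higher and 14.1% lower. Nothing is read from these counts, because the choice of members used the same comparisons. The median log2 fold change of the 6 was -0.25 with shMed1 #2 and 0.04 with shMed1 #4, against -0.0035 and 0.00086 over all tested genes. Sample values of 4 tested members did not overlap between shMed1 #2 and NTC (51.5% of all tested genes), and those of 5 tested members did not overlap between shMed1 #4 and NTC (38.9%). Of the untested members, Notch3 did not overlap between shMed1 #4 and NTC, at 0 against 1 to 3 counts.

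**Figure D1:**
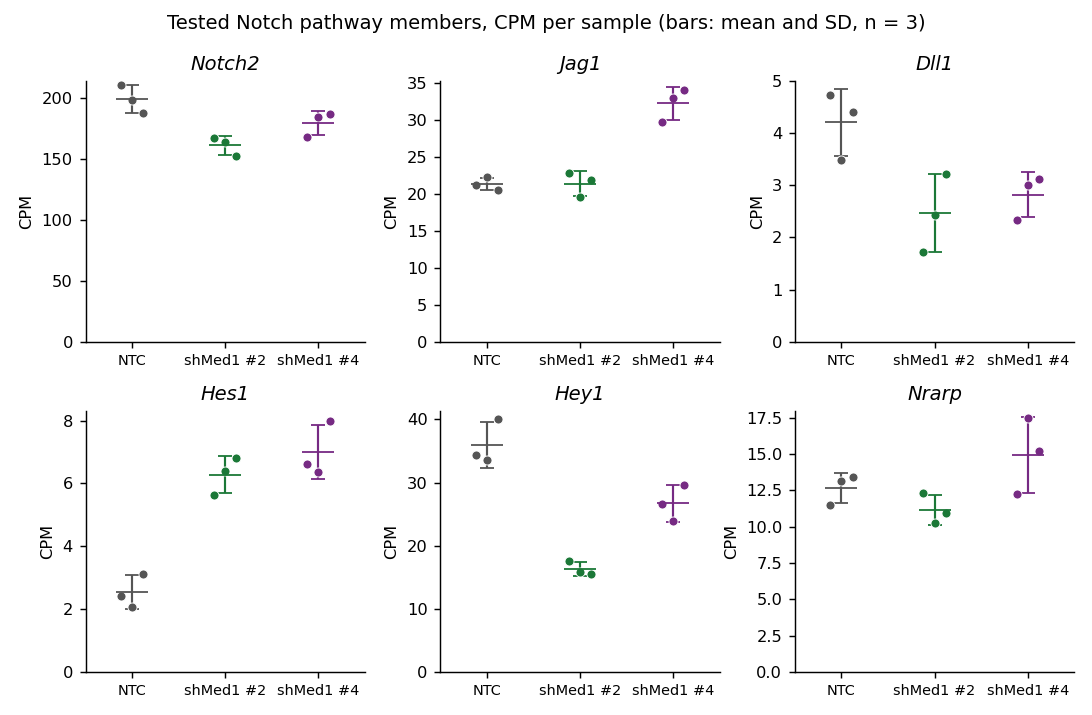
Expression of the 6 tested members in CPM (vertical axes, from 0) in each sample of NTC, shMed1 #2 and shMed1 #4; points are samples, and bars are the mean and SD (n = 3). Hes1 is higher and Hey1 lower than NTC in every sample of both hairpin groups, and Jag1 is higher with shMed1 #4 alone.

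Among the receptors Notch2 was by far the most abundant. Levels of different genes are compared here as CPM per kb of union exon length. On that scale Notch2 stood at 18.5 ± 1.08 (SD, n = 3) in NTC, and Notch4, a receptor outside the member list, came next at 1.44 ± 0.127. Notch1 averaged 0.0393 and Notch3 0.0247, and the sample ranges of these last 2 overlapped in NTC. As a share of the summed level of the 4 receptors, Notch2 made up 91.6% to 93.1% in the NTC samples, 88.8% to 90.0% with shMed1 #2 and 90.9% to 91.6% with shMed1 #4. The shMed1 #2 samples all lay below the others in that share. Notch4 made up 6.56% to 8.16% in NTC, 9.86% to 10.9% with shMed1 #2 and 8.21% to 8.74% with shMed1 #4, so that its share was higher in every hairpin sample than in NTC, while its own difference in level was not called (log2 fold change 0.26, adjusted p = 0.0931, and 0.10, adjusted p = 0.609, in edgeR's test).

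Notch2 (ENSMUSG00000027878.11, protein-coding, plus strand of chromosome 3, 98013527 to 98150361, GRCm38) was 211, 199 and 188 CPM in the NTC samples. It was 167, 164 and 153 CPM with shMed1 #2 and 169, 184 and 187 CPM with shMed1 #4. All 6 hairpin samples lay below the lowest NTC sample, and the highest shMed1 #4 sample, at 186.9 CPM, lay just under the lowest of NTC, at 187.9 CPM. The log2 fold change was -0.31 (SE 0.0483, 95% interval -0.40 to -0.21) with shMed1 #2 and -0.15 (SE 0.0479, -0.24 to -0.05) with shMed1 #4. The second of these rested on single libraries: it was -0.10 without NTC replicate 1 and -0.10 without shMed1 #4 replicate 1, and was then not called, and it was not called in DESeq2 either.

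Notch1 (chromosome 2, 26457903 to 26516663, minus strand) and Notch3 (chromosome 17, 32120820 to 32166852, minus strand) were close to the counting limit. Notch1 had 8, 3 and 3 counts in NTC, 3, 4 and 1 with shMed1 #2 and 7, 6 and 5 with shMed1 #4. Its hairpin values overlapped those of NTC. Notch3 had 1, 3 and 1 counts in NTC, 0, 1 and 1 with shMed1 #2 and none in the 3 samples with shMed1 #4. A count of 0 allows up to 3 counts, or 0.338 to 0.369 CPM on the library totals, so no difference in Notch3 was detectable at this depth. This limit covers counting error only.

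**Figure D2:**
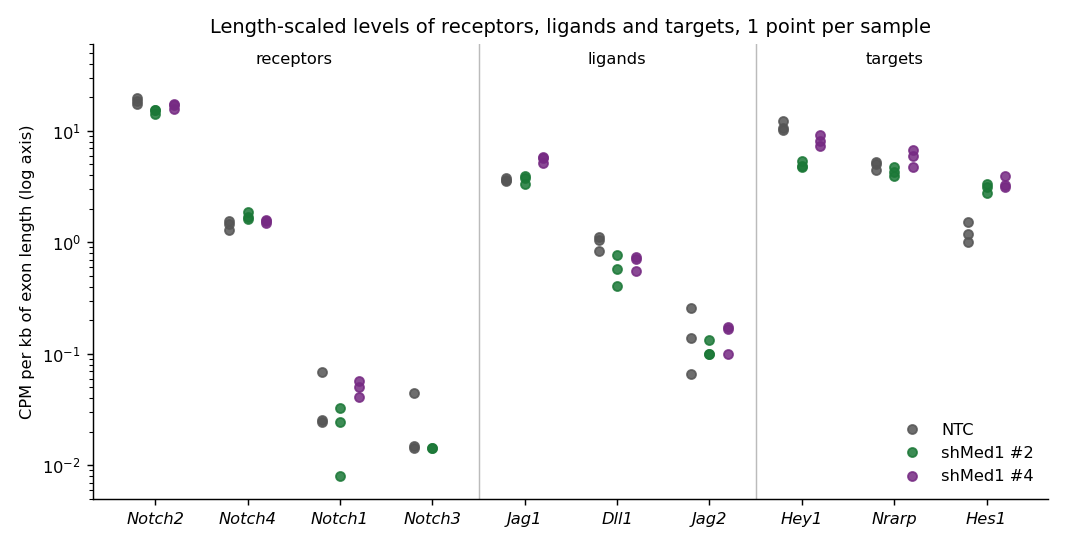
Length-scaled level (CPM per kb of union exon length, log axis) of the receptors including Notch4, the ligands and the targets, 1 point per sample, coloured by group. Values of 0 (Notch3 in all shMed1 #4 samples and 1 shMed1 #2 sample) and Heyl, at 0 throughout, are not drawn; Notch2 lies above the other genes drawn in every group.

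Of the 3 ligands among the members, Jag1 was the most abundant and it was higher than NTC with shMed1 #4 alone of the hairpins. Jag1 encodes a Jagged ligand of Notch receptors (ENSMUSG00000027276.7, minus strand of chromosome 2, 137081456 to 137116644). It stood at 21.2, 22.2 and 20.5 CPM in NTC, 22.8, 19.5 and 21.8 CPM with shMed1 #2, and 29.7, 33.0 and 34.0 CPM with shMed1 #4. The shMed1 #2 samples overlapped NTC, and every shMed1 #4 sample lay above all 6 others. The log2 fold change against NTC was 0.00 (SE 0.101, 95% interval -0.20 to 0.21) with shMed1 #2 and 0.60 (SE 0.0945, 0.41 to 0.78) with shMed1 #4.

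Dll1, a Delta ligand (ENSMUSG00000014773.13, minus strand of chromosome 17, 15367354 to 15376872), was scarcer. It stood at 4.73, 3.49 and 4.40 CPM in NTC, from 29 to 39 counts, 1.72, 2.44 and 3.23 CPM with shMed1 #2, and 2.33, 3.01 and 3.13 CPM with shMed1 #4. All 6 hairpin samples were below the lowest NTC sample, and the 2 hairpin groups overlapped. The log2 fold change was -0.77 (SE 0.252, 95% interval -1.27 to -0.27) with shMed1 #2, where it was called, and -0.57 (SE 0.246, -1.06 to -0.09) with shMed1 #4, where it was not. Without NTC replicate 1 (-0.68) or shMed1 #2 replicate 1 (-0.57) the first was not called. Jag2, the second Jagged ligand (chromosome 12, 112907819 to 112929776, minus strand), had 4 to 15 counts in NTC, 6 to 8 with shMed1 #2 and 6 to 10 with shMed1 #4, and its groups overlapped.

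Hes1 and Hey1 are both direct readouts of the pathway in textbooks, and they went opposite ways. Hes1 (ENSMUSG00000022528.8, plus strand of chromosome 16, 30064384 to 30067796) stood at 2.42, 2.05 and 3.13 CPM in NTC, from 17 to 27 counts. With shMed1 #2 its values were 5.63, 6.39 and 6.80 CPM, and with shMed1 #4 they were 6.63, 6.38 and 7.999 CPM, from 49 to 69 counts over both. Every hairpin sample was above every NTC sample, and the 2 hairpin groups overlapped. The log2 fold change was 1.30 (SE 0.220, 95% interval 0.86 to 1.74), a 2.46-fold difference, with shMed1 #2, and 1.46 (SE 0.216, 1.03 to 1.89), or 2.75-fold, with shMed1 #4.

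Hey1 (ENSMUSG00000040289.8, minus strand of chromosome 3, 8663359 to 8667256) stood at 34.3, 33.5 and 40.1 CPM in NTC, 17.6, 15.8 and 15.6 CPM with shMed1 #2, and 26.6, 23.8 and 29.7 CPM with shMed1 #4. The 3 groups did not overlap: NTC was highest, shMed1 #4 lay between and shMed1 #2 was lowest. The log2 fold change was -1.14 (SE 0.0992, 95% interval -1.34 to -0.94) with shMed1 #2 and -0.43 (SE 0.0911, -0.61 to -0.25) with shMed1 #4. The pericyte marker Pdgfrb took the same order, at 79.1 CPM in NTC, 30.9 CPM for shMed1 #2 and 48.5 CPM for shMed1 #4. The 5 pericyte markers summed to 71.9 to 85.6 CPM, 27.3 to 33.2 CPM and 39.6 to 56.2 CPM in the same groups. Nearly all of that sum was Pdgfrb: Kcnj8 and Abcc9 were at 0, and Rgs5 and Cspg4 stayed under 1 CPM in every sample. The epithelial sum given above took that order as well. The part of either in the difference of Hey1 was not tested.

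The balance between the 2 repressors is given by their levels per kb. The level of Hey1 per kb was 8.83, 10.2 and 7.995 times that of Hes1 in the NTC samples, 1.95, 1.54 and 1.43 times with shMed1 #2, and 2.51, 2.33 and 2.31 times with shMed1 #4. In every sample Hey1 remained the more abundant, and the 3 groups did not overlap. The mean ratio was 9.01 ± 1.11 in NTC, 1.64 ± 0.273 with shMed1 #2 and 2.38 ± 0.106 with shMed1 #4 (SD, n = 3). These ratios combine the values by which the genes were chosen and are a description.

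Nrarp, whose product binds the Notch intracellular complex and limits it (ENSMUSG00000078202.3, plus strand of chromosome 2, 25180758 to 25183339), stood at 11.5, 13.1 and 13.4 CPM in NTC, 12.3, 10.2 and 10.9 CPM with shMed1 #2 and 12.2, 17.5 and 15.2 CPM with shMed1 #4. Both hairpin groups overlapped NTC, and neither difference was called (log2 fold change -0.19, SE 0.136, 95% interval -0.46 to 0.08, and 0.23, SE 0.130, -0.02 to 0.49). Without shMed1 #4 replicate 1, the lowest of its group, the value with shMed1 #4 was 0.36 and was called. Its exon of 2582 bases is overlapped over 2051 bases by the antisense gene Gm38287, which had 68 to 121 counts per library. With the strand setting of the counting as not given in the sources used here, reads of the 2 genes cannot be told apart. Gm38287 had means of 10.6, 11.2 and 12.7 CPM in the NTC, shMed1 #2 and shMed1 #4 samples. Heyl, the other Hey-type repressor of the list (chromosome 4, 123233556 to 123249875), had no counts in any of the 9 samples.

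Ordered by level per kb in NTC, the members ran Notch2, Hey1 (11.01), Nrarp (4.92), Jag1 (3.65), Hes1 (1.24), Dll1 (0.997), Jag2 (0.155), Notch1, Notch3 and Heyl. Neighbours whose sample ranges overlapped were Hes1 and Dll1, Jag2 and Notch1, and Notch1 and Notch3. With shMed1 #2 the order was the same, but Hes1 (3.08) no longer overlapped Dll1 (0.584), and Hey1 (5.00), Nrarp (4.32), Jag1 (3.66) and Hes1 lay close together without overlap between neighbours. With shMed1 #4 Nrarp (5.79) and Jag1 (5.53) overlapped, and Notch3 and Heyl were both at 0. When the longest transcript was used in place of the union of exons, Hes1 stood above Jag1 with shMed1 #2, and no other rank changed in any group.

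**Figure D3:**
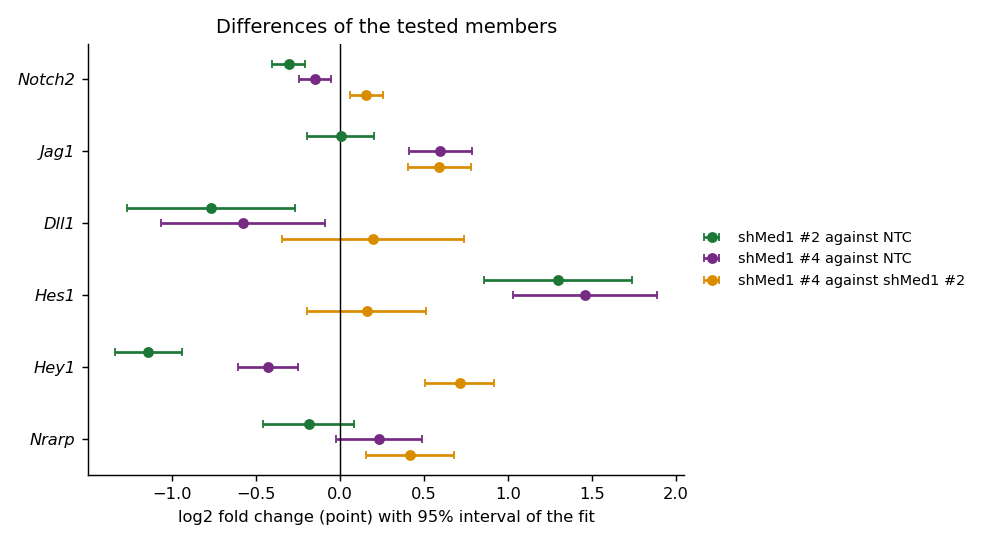
Log2 fold change (horizontal axis) of the 6 tested members for each hairpin against NTC and for shMed1 #4 against shMed1 #2; points are estimates from edgeR and lines their 95% intervals. The estimates of the comparison between the hairpins lie to the right of 0 for all 6, with intervals that span 0 for Dll1 and Hes1.

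The comparison of shMed1 #4 with shMed1 #2 (Med1 differed by 0.10 between them, 95% interval -0.08 to 0.28) was the difference of the 2 comparisons with NTC. The members were chosen with results of those comparisons known. Each p below therefore records only the side of the threshold and supports nothing, and for Hes1 and Hey1 no p is given. Of the other 4 tested members, 3 were called higher with shMed1 #4 (Notch2, Jag1 and Nrarp) and none lower, where 26.0% of all tested genes were called, 12.9% higher and 13.1% lower. Sample values of Notch2 and Jag1 did not overlap between the hairpins, as for 37.5% of all tested genes. Those of the untested Notch1 did not overlap either, at 1 to 4 counts with shMed1 #2 and 5 to 7 with shMed1 #4. Jag1 was higher by 0.59 on the log2 scale (SE 0.0939, 95% interval 0.41 to 0.78, adjusted p = 3.86e-07 in edgeR's quasi-likelihood test), in 3 of 3 samples. Notch2 was higher by 0.16 (SE 0.0487, 0.06 to 0.25, edgeR adjusted p = 0.0098), in 3 of 3 samples, but was not called without shMed1 #2 replicate 3 (0.12, adjusted p = 0.111), shMed1 #4 replicate 2 (0.14, adjusted p = 0.0506) or shMed1 #4 replicate 3 (0.13, adjusted p = 0.0682). Nrarp was higher by 0.42 (SE 0.132, 0.16 to 0.68, edgeR adjusted p = 0.0116), though the groups overlapped; it was not called in DESeq2 (adjusted p = 0.0564) nor without shMed1 #2 replicate 2 (0.36, adjusted p = 0.0676) or shMed1 #4 replicate 2 (0.29, adjusted p = 0.136). Dll1 did not pass, with a difference of 0.19 and an interval of -0.35 to 0.74 (adjusted p = 0.662). Without shMed1 #4 replicate 2, Jag1 was the 1 member of these 4 that was called. As a description, the difference of Hes1 was 0.16 (-0.19 to 0.52) and that of Hey1 0.71 (0.51 to 0.92).

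RefSeq promoter windows (GRCm38.p6, 250 bases before to 50 after the start) matched 7 members, with a second start for Dll1. The window of Notch1 (chromosome 2, 26503773 to 26504072) lay inside the gene and did not reach its annotated start at 26516663. Those of Jag2 and 1 of the 2 of Dll1 also held no base before the annotated gene start. Hes1, Hey1 and Heyl had no entry. The core of the Rbpj site, TGGGAA on either strand, occurred in none of the 8 windows and in 25.6% of 32851 promoter windows of the same length. The E-box CACGTG and the site CACGCG, both of the kind that Hes and Hey repressors bind, were searched on both strands; no match printed here overlaps another. CACGTG occurred in the window of Nrarp, 108 bases before the start, and in 7.15% of all windows. CACGCG occurred in those of Jag1, Notch2, Jag2 and 1 of the 2 of Dll1, and in 9.27% of all windows. Such matches describe these letters in these windows and are no evidence of binding. The upstream parts for Jag1 and Nrarp, the 2 members without a call against NTC for shMed1 #2 that were called higher with shMed1 #4 than with shMed1 #2, are shown up to the annotated gene start, with these matches in capitals. That of Jag1 is on the minus strand at chr2:137116645-137116770 and that of Nrarp on the plus strand at chr2:25180508-25180757.
Jag1: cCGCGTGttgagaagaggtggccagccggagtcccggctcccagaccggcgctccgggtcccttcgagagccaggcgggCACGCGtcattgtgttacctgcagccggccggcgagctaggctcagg
Nrarp: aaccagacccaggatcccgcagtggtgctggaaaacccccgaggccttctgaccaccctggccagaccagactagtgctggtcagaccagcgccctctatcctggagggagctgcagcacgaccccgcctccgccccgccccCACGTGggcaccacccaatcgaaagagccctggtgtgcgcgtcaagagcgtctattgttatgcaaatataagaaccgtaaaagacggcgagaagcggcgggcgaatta

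The genes whose profiles lay nearest to each of the opposed targets were found by the root mean square difference of log2 CPM, centred on NTC, over the 9 samples and among 10508 genes. Among the 5 nearest to Hes1 were Adgrg1, an adhesion G protein-coupled receptor (0.251), Kpna1, an importin (0.275), Hipk3, a kinase (0.299), and Rnf165, a ubiquitin ligase (0.323). Nearest to Hey1 were Zfp354c, a zinc finger factor (0.0848), Pim2, a kinase (0.0887), Aspa, an aspartoacylase (0.0977), Nt5e, the ecto-nucleotidase CD73 (0.105), and Atp13a2, a lysosomal transporter (0.106). All 9 samples share the 3 NTC libraries as the centre. The distances for Hes1 were larger than those for Hey1, whose counts were higher.

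The other genes of the pathway were read from a list of 63, of which 50 were tested. The list was chosen with earlier results of these data known, so each adjusted p given for its genes is a description. With shMed1 #2, 8 were higher and 19 lower than NTC, 54% called where 43.7% of all genes were, with a median log2 fold change of -0.12. With shMed1 #4, 7 were higher and 11 lower, 36% called where 28.2% of all genes were, with a median of -0.04. Called with both hairpins were 3 higher and 8 lower, where 10.4% of all tested genes were higher with both and 10.1% lower with both. The comparisons share the NTC samples. Not tested for low counts were 13, among them the ligands Dll3, Dll4 and Dlk1, the fringe enzyme Mfng, Rbpjl, Dtx1, and Hes2, Hes3, Hes5, Hes7 and Helt.

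**Figure D4:**
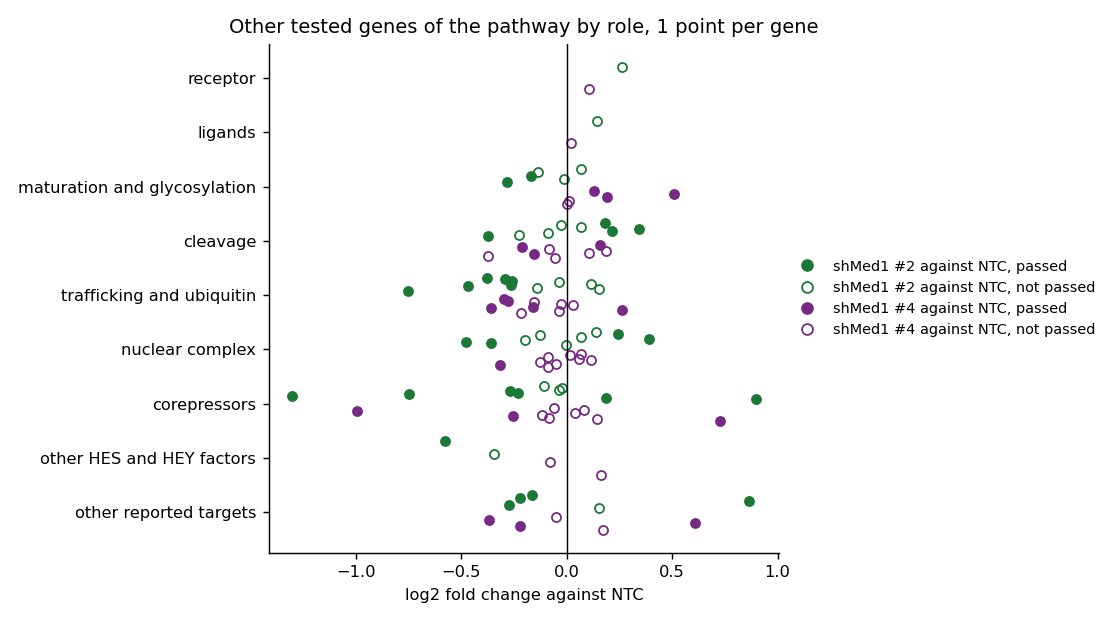
Log2 fold change against NTC (horizontal axis) of the 50 tested genes of the pathway outside the member list, grouped by role, 1 point per gene and hairpin; filled points had an adjusted p under 0.05 in edgeR. Trafficking and ubiquitin genes called with shMed1 #2 all lie below 0, and the corepressors reach from -1.30 to 0.90.

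In the nuclear complex, Rbpj, the DNA-binding partner of all Notch receptors, was lower with both hairpins. It stood at 201, 184 and 187 CPM in NTC, 152, 146 and 148 CPM with shMed1 #2 and 146, 163 and 149 CPM with shMed1 #4, and no hairpin sample reached NTC. Rbpj fell by 0.36 (SE 0.0479, adjusted p = 9.15e-10) and 0.32 (SE 0.0479, adjusted p = 8.16e-08). The Mastermind coactivator Maml1 rose by 0.39 with shMed1 #2 (adjusted p = 1.37e-06) and was 0.12 with shMed1 #4 (adjusted p = 0.227). Maml3 fell by 0.48 with shMed1 #2 (adjusted p = 0.00106) and was -0.05 with shMed1 #4 (adjusted p = 0.788). Of the 9 tested genes of this role, 2 were higher and 2 lower with shMed1 #2 (44.4% called, where 43.7% of all genes were), and none higher and 1 lower with shMed1 #4 (11.1%, where 28.2% were), so the called shares were near or below those of all genes. Maml2 did not pass with either hairpin (-0.20 and -0.13; adjusted p = 0.153 and 0.437), although it was called with shMed1 #2 without NTC replicate 1 (-0.30, adjusted p = 0.0477).

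The corepressors of the Groucho family, which Hes proteins recruit, changed in both directions. Tle1 fell by 0.75 (SE 0.0771, adjusted p = 1.06e-13) with shMed1 #2 and by 0.25 (SE 0.0731, adjusted p = 0.00478) with shMed1 #4, from a mean of 51.6 CPM to 30.7 and 43.2 CPM. Tle2 had means of 12.5, 5.04 and 11.7 CPM in the NTC, shMed1 #2 and shMed1 #4 samples. Its shMed1 #2 samples, at 5.403 CPM or less, lay apart from the other 6, and Tle2 differed between the hairpins by 1.22 on the log2 scale (SE 0.160, edgeR adjusted p = 1.99e-09). Tle4, at 1.82 to 2.65 CPM in NTC, rose by 0.90 with shMed1 #2 (adjusted p = 0.0026) and by 0.73 with shMed1 #4 (adjusted p = 0.0284). With shMed1 #4, DESeq2 did not call Tle4 (adjusted p = 0.0973), nor did edgeR when either of 2 NTC libraries, replicate 1 (0.60) or 3 (0.75), or either of 2 shMed1 #4 libraries, replicate 2 (0.64) or 3 (0.60), was left out. Fhl1, of which 1 isoform binds Rbpj, stood at 14.2 to 17.0 CPM in NTC, 13.6 to 16.7 CPM for shMed1 #2 and 5.33 to 9.54 CPM for shMed1 #4. It fell by 1.00 with shMed1 #4 (SE 0.146, adjusted p = 4.85e-08) and was -0.04 with shMed1 #2 (adjusted p = 0.839). Of the 9 corepressors, 2 were higher and 4 lower with shMed1 #2 (66.7% called, beside 43.7% of all genes), and 1 higher and 2 lower with shMed1 #4 (33.3%, near the 28.2% of all genes).

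Of 10 tested genes that ubiquitinate or sort receptors and ligands, none were higher and 6 lower with shMed1 #2 (of all tested genes 21.8% were higher and 21.9% lower), and 1 was higher and 4 lower with shMed1 #4 (14.0% and 14.1%). Whether this group stands apart from other genes was not tested. Mib2, a ubiquitin ligase for ligands, fell by 0.47 (adjusted p = 2.86e-05) and 0.36 (adjusted p = 0.00189). Its relative Mib1 fell by 0.26 and 0.16 (adjusted p = 1.08e-05 and 0.0103), and the Deltex genes Dtx2 (-0.38 and -0.30; adjusted p = 0.00128 and 0.0177) and Dtx3 (-0.29 and -0.28; adjusted p = 0.000533 and 0.00193) fell as well. With shMed1 #4 the call of Mib1 was lost without NTC replicate 2 (-0.12), shMed1 #4 replicate 1 (-0.15) or shMed1 #4 replicate 3 (-0.13). That of Dtx2 failed in DESeq2 (adjusted p = 0.0698) and on leaving out NTC replicate 3 (-0.21), shMed1 #4 replicate 1 (-0.26) or shMed1 #4 replicate 2 (-0.26).

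Among the enzymes that mature the receptors, Pofut1, which adds O-fucose to Notch, was called in opposite directions with the hairpins. It was 76.2, 86.6 and 86.0 CPM in NTC, 78.3, 68.2 and 74.6 CPM with shMed1 #2 and 96.0, 93.3 and 95.1 CPM with shMed1 #4. It fell by 0.17 with shMed1 #2 (adjusted p = 0.015) and rose by 0.19 with shMed1 #4 (adjusted p = 0.00811), and the difference between the hairpins was 0.36 (SE 0.059, edgeR adjusted p = 6.96e-07). The call with shMed1 #2, whose samples overlapped NTC, failed in DESeq2 (adjusted p = 0.0538) and on leaving out NTC replicate 2 (-0.14), NTC replicate 3 (-0.14) or shMed1 #2 replicate 2 (-0.12), and the call with shMed1 #4 without NTC replicate 1 (0.13). Lfng, the lunatic fringe enzyme that extends O-fucose, stood at 12.5 to 14.9 CPM in NTC, 11.6 to 13.5 CPM for shMed1 #2 and 16.6 to 21.2 CPM for shMed1 #4. It rose by 0.51 with shMed1 #4 (SE 0.118, adjusted p = 0.000449) and was -0.13 with shMed1 #2 (adjusted p = 0.415), and the difference between the hairpins was 0.64 (edgeR adjusted p = 1.38e-05). Rfng, another fringe enzyme, fell by 0.28 with shMed1 #2 (adjusted p = 0.00331), a call lost without NTC replicate 3 (-0.21), and was 0.00018 with shMed1 #4 (adjusted p = 0.999). The protease gene Furin rose by 0.13 with shMed1 #4 (adjusted p = 0.0409), and that call was lost under 8 of 18 alternatives, leaving out NTC replicate 1 (0.09), NTC replicate 2 (0.14) or shMed1 #4 replicate 3 (0.06) among them.

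Among the proteases that cleave the receptors after ligand binding, Adam10 rose by 0.18 and 0.16 (adjusted p = 0.000982 and 0.00751), the second not called without shMed1 #4 replicate 2 (0.12). Adam17 went the other way with shMed1 #4 (-0.21, adjusted p = 0.00244 in edgeR) and was -0.02 with shMed1 #2 (adjusted p = 0.752). Of gamma-secretase, Psenen fell by 0.37 with shMed1 #2 (adjusted p = 0.00029) and was -0.06 with shMed1 #4 (adjusted p = 0.669). Aph1b rose by 0.34 with shMed1 #2 (adjusted p = 0.0135), a call that failed in DESeq2 (adjusted p = 0.0514) and on leaving out NTC replicate 2 (0.24) or shMed1 #2 replicate 3 (0.25), and was 0.18 with shMed1 #4 (adjusted p = 0.275). Psen2 did not pass (-0.23 and -0.37; adjusted p = 0.375 and 0.174), but was called with shMed1 #4 without NTC replicate 1 (-0.60). Of 8 tested cleavage genes, 3 were higher and 1 lower with shMed1 #2 (50% called, near the 43.7% of all genes), and 1 higher and 2 lower with shMed1 #4 (37.5%, beside 28.2%).

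Of the further Hes and Hey genes, Hes6, which encodes a factor that opposes Hes1, fell by 0.58 with shMed1 #2 (adjusted p = 0.00263) and was -0.08 with shMed1 #4 (adjusted p = 0.758). Hey2, at 1.15 to 1.64 CPM on average per group, did not pass with either (-0.34 and 0.16; adjusted p = 0.494 and 0.782). Among 5 other reported targets, Cdkn1a, the cell cycle inhibitor p21, rose by 0.87 and 0.61 (adjusted p = 2.29e-13 and 1.59e-07). The cyclin gene Ccnd3 fell by 0.22 and 0.37 (adjusted p = 5.75e-05 and 1.54e-09), and Myc fell by 0.27 and 0.22 (adjusted p = 2.56e-06 and 0.000235). Snai2 did not pass with either hairpin (0.15 and 0.17; adjusted p = 0.0951 and 0.0846), and it was called without shMed1 #2 replicate 2 (0.20) and without shMed1 #4 replicate 3 (0.26) in the respective comparison. The ligand-like gene Dlk2 did not pass (0.14 and 0.02; adjusted p = 0.155 and 0.881). The targets of the list gave 1 higher and 3 lower of 5 with shMed1 #2 (43.7% of all genes were called), and 1 higher and 2 lower with shMed1 #4 (28.2%).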

How the data were processed

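Total RNA of 9 samples was read on the BGISEQ-500 platform, per the labels. The deposited values are raw counts of reads for each gene in each sample. The submitters' processing notes name STAR, HTSeq and GRCm38 (mm10), with their versions, the annotation and the strand setting as not given in the sources used here. Of 55335 identifiers, 55154 matched a GENCODE M21 symbol. Each file had 0 lines naming no gene.

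Genes were filtered with filterByExpr (13611 kept), scaled by TMM (factors 0.982 to 1.02) and tested with edgeR 4.0.16 in R 4.3.3 (quasi-likelihood, robust, 1 coefficient per group over all 9 samples), with Benjamini-Hochberg adjustment over all tested genes. Every adjusted p in the text comes from that test unless DESeq2 is named. Where 2 values follow a gene, the first belongs to shMed1 #2. Log2 CPM for profiles used a prior count of 2, and these profiles were compared among genes of at least 1 log2 CPM.

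The members and lists were chosen with earlier results of these data known. Named were Med1, the members, the 5 nearest profiles to Hes1 and Hey1 (no predicted genes, clones or pseudogenes), markers, and up to 4 tested genes of each role. Those called with both hairpins came first, then others by mean fold change. Gm38287, Adam17 and the comparison of Hey1 with Hes1 were added after their values were seen. Adam17 is not among the named pathway genes recomputed under the alternatives. A gene that the rule names and a marker are not reported here. The fit was tested on simulated counts. Alternatives were RLE, upper quartile and no scaling, no filter, at least 10 counts in 6 samples, DESeq2 1.42.0, a fit without robust estimation, a fit to the compared groups alone, the replicate block, and each library left out. Figures used matplotlib 3.10.9.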

Additional observations from a re-analysis of the deposited data

Results flagged for a closer look

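Nrarp was the 1 tested member whose estimates against NTC had opposite signs with the hairpins (-0.19 with shMed1 #2 and 0.23 with shMed1 #4, neither called) while the difference between them, 0.42 on the log2 scale, passed edgeR's test (adjusted p = 0.0116). This p is a description, since the members were chosen with results of the comparisons with NTC known. Its antisense neighbour Gm38287 differed by 0.18 between the hairpins (95% interval -0.09 to 0.46, adjusted p = 0.359). The part of that gene in the counts of Nrarp was not tested.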

How the results depend on the processing

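The counts of called genes and the fold changes of tested members and named pathway genes were each recomputed under 18 alternatives. The level order and the nearest profiles each had 1 alternative. Receptor shares, the ratio of Hey1 to Hes1, overlaps between groups, marker sums and Gm38287 were not recomputed. No fold change of a member or named pathway gene reversed a call. Of 324 values for members, 312 kept their side of the threshold, 11 lost a call and 1 gained one; of 1512 values for named pathway genes, 1464 kept it, 44 lost a call and 4 gained one. Leaving out single libraries gave 3 to 4 called members with shMed1 #2, 3 to 4 with shMed1 #4 and 2 to 4 between the hairpins (Hey1 included in each), and 25 to 28, 15 to 18 and 13 to 19 called pathway genes. DESeq2 gave 25, 14 and 15 called pathway genes, against 27, 18 and 19. Over all genes the calls ranged from 4903 to 6138, 2815 to 3878 and 2524 to 3566. With library size alone the share of higher calls among all calls was 39.9%, 42.2% and 58.2%, against 49.8%, 49.8% and 49.7% with TMM. Samples with the same replicate number did not deviate together (correlations from -0.041 to 0.042 over genes), and with the replicate block the called members stayed at 4 in each comparison and the pathway genes at 27, 18 and 19. With Pearson likeness in place of the root mean square difference, 1 of the 10 nearest genes was shared; the cause was not tested. Counts limit the precision for Hes1, Dll1 and Tle4. Notch1, Notch3 and Jag2 did not pass the filter on counts, so no fold change is given for them.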
